A study of Rattus norvegicus with 6 samples.

Results

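The major histocompatibility complex (MHC) class II genes of the rat and their helpers were followed in pulmonary veins (PVs) narrowed by bilateral pulmonary vein banding (BPVB). The 9 genes are the α and β chains of the classical RT1-B and RT1-D molecules (RT1-Ba, RT1-Bb, RT1-Da and RT1-Db1), the chains of the peptide-loading molecule DM (RT1-DMa and RT1-DMb), the invariant chain Cd74, the transactivator Ciita and the protease cathepsin S (Ctss). They were found by gene symbol among the 17833 genes of the deposited table, which holds 1 FPKM value (fragments counted on a gene, scaled to its length and to the depth of the library) per gene and rat. All 9 were present, and all 9 passed the filter on low expression that left 15150 genes. They were selected on their measured values, the FPKM differences between the BPVB and sham groups in these same libraries, so the differences of the 9 genes between the groups are given below as a description, with no test.

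Bulk RNA-seq covered 3 wild-type Sprague-Dawley rats (labelled SD) with BPVB and 3 sham-operated rats of the same strain. Surgery was performed at postnatal day 1, and all rats were sampled at postnatal day 21 (P21). Sham rats had their chest opened and a thread passed at the PVs and withdrawn, so that the veins were left unbanded. The design text of the series abbreviates the operation as PAB, whereas the label of each operated sample names pulmonary vein banding, which is followed here. Each library came from PV tissue of the right upper lung lobe. It averages over smooth muscle, endothelium, the myocardial sleeve, immune cells and any lung epithelium taken along, so that more cells of a type and more RNA per cell cannot be told apart. Genes of alveolar type 2 cells were present in all 6 libraries, with sums of 565 to 610 FPKM in the BPVB group and 67.8 to 70.7 in the sham group. The fragments behind the FPKM could be recovered, and library totals lay between 23439506 and 29725808. Genes that define the labelled tissue were high in all 6 libraries, with Acta2 of smooth muscle at 1478 ± 9.5 FPKM in the BPVB group and 1680 ± 21 in the sham group (SD, n = 3 each) and Myl7 of atrial myocardium at 5408 ± 166 and 8131 ± 74.2 (SD, n = 3 each).

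Class II molecules are pairs of an α and a β chain that carry peptides from endosomes to the cell surface and show them to CD4 T cells. Newly made pairs are held by the invariant chain, which cathepsin S and other proteases cut down to a short fragment, and DM then exchanges this fragment for a peptide. Dendritic cells, B cells and activated macrophages make class II constantly or on demand, alveolar type 2 cells of the lung carry it as well, and interferon gamma can switch it on in endothelium and other cells. The switch in each case is Ciita, a coactivator without DNA binding of its own that docks on the RFX, NF-Y and CREB factors bound to class II promoters.

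Banding went with a higher mean FPKM of all 9 genes, but by very unequal amounts. The ratio of the group means ran from 16.1 for RT1-Ba to 1.22 for RT1-DMb. On log2(FPKM + 0.5), the scale used for all log2 differences here, the median difference of the 9 genes was 0.86, beside 0.02 over all genes tested. In 8 of the 9 genes the 3 BPVB libraries all lay above the 3 sham libraries, and this held for 25.2% of all tested genes. RT1-DMb was the gene whose groups overlapped. Between 40 and 7240 fragments per library lay behind each value.

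**Figure D1:**
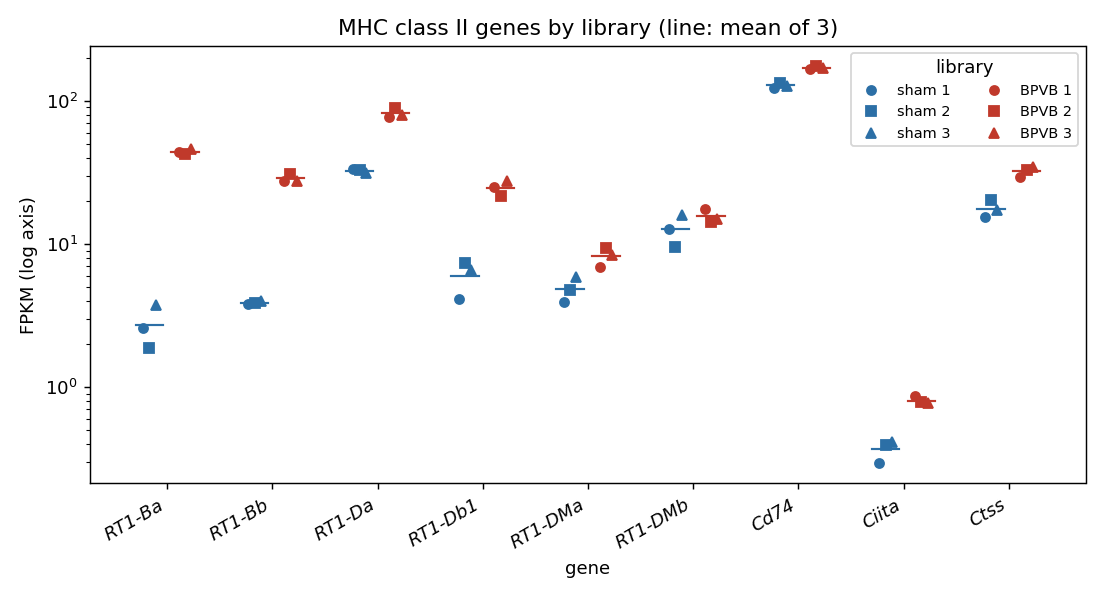
FPKM of the 9 class II genes in each library, on a log axis, with the 3 sham libraries in blue and the 3 BPVB libraries in red; symbols give the replicate number and horizontal lines the mean of 3. The gap between the groups is widest for RT1-Ba (44.1 against 2.74 FPKM) and the symbols of the groups overlap for RT1-DMb.

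RT1-Ba (NCBI Gene 309621), the α chain of RT1-B and the rat counterpart of the human DQ α chain, had 43.8, 42.5 and 45.9 FPKM in the 3 BPVB rats (in the order of their replicate numbers, as in all such lists), against 2.59, 1.87 and 3.75 in the 3 sham rats. The lowest BPVB library was 11.3 times the highest sham library. These sham values rest on 69, 49 and 100 fragments, and their coefficient of variation was 34.7%, the widest of any gene of the set in either group. The log2 difference was 3.82 (standard error 0.18).
RT1-Bb (NCBI Gene 309622), the β chain that pairs with it, had 27.7, 30.8 and 27.7 FPKM in the BPVB rats, against 3.83, 3.85 and 4.01 in the sham rats. The sham rats were nearly alike here, and the lowest BPVB library stood 6.90 times above the highest of them. The log2 difference was 2.73 (standard error 0.066).
RT1-Da (NCBI Gene 294269), the α chain of RT1-D and counterpart of human DR α, was the most abundant chain in both groups. It had 77.5, 88.6 and 79.5 FPKM in the BPVB rats, against 33.7, 32.7 and 31.1 in the sham rats. The ratio of its means was the smallest of the 4 classical chains, 2.52, with a log2 difference of 1.32 (standard error 0.056).
RT1-Db1 (NCBI Gene 294270), a β chain of RT1-D, had 24.9, 21.7 and 27.6 FPKM in the BPVB rats, against 4.13, 7.31 and 6.57 in the sham rats. The sham libraries spread widely, with sham replicate 1 the lowest, and still lay well under all BPVB libraries. The log2 difference was 1.98 (standard error 0.18).

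A class II promoter is recognised by an X box, bound by RFX and CREB, and a Y box, bound by NF-Y, at a nearly fixed distance. Windows of 250 bases before to 50 bases after the start site were available from RefSeq for 7 of the 9 genes (rat assembly GRCr8; the assembly behind the FPKM is not named in the sources used here). They were searched on both strands for GNNACNG, the core of the X boxes in these windows, followed after 28 to 32 bases (start to start) by TGATTGG, which holds the Y box ATTGG, the reverse complement of CCAAT. The spacing and the letters were chosen after these windows had been read. The pair was present in 5 of the 7 windows, those of RT1-Ba, RT1-Bb, RT1-Da, RT1-Db1 and RT1-DMa, and in 0.155% of all 33469 windows. Alone, GNNACNG is in 88.1% of windows, TGATTGG in 7.06% and CCAAT in 37.5%. The windows of Cd74 and Ctss do not hold these letters at this spacing. The 5 stretches are shown 5′ to 3′ on the strand of the gene, to let the shared layout be seen, with the letters matched by each element in capitals.
RT1-Ba: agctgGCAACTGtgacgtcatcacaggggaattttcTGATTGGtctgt
RT1-Bb: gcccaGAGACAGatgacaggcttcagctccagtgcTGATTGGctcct
RT1-Da: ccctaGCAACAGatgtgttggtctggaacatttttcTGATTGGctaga
RT1-Db1: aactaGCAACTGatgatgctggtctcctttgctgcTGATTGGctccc
RT1-DMa: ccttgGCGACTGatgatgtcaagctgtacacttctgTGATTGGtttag
They lie at chr20:4576976-4577023 on the plus strand (RT1-Ba), chr20:4604170-4604216 on the minus strand (RT1-Bb), chr20:4515328-4515375 on the plus strand (RT1-Da), chr20:4560233-4560279 on the minus strand (RT1-Db1) and chr20:4712390-4712437 on the minus strand (RT1-DMa). The X core began 31 bases before the Y element in RT1-Ba, RT1-Da and RT1-DMa and 30 bases before it in RT1-Bb and RT1-Db1. It began between 76 and 112 bases before the start site. The genes that share this layout include RT1-Ba, with the largest log2 difference of the set (3.82), and RT1-DMa, with 0.71. The neighbouring gene RT1-DOb, which is not of the set, holds the pair as well, at 28 bases.

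The make-up of the class II message differed between the groups. FPKM is per length, so the 4 classical chains can be added. Their sum was 174, 184 and 181 FPKM in the BPVB rats, against 44.3, 45.8 and 45.5 in the sham rats, a ratio of the means of 3.97. The RT1-B chains made up 41.1%, 39.9% and 40.7% of this sum in the BPVB rats, against 14.5%, 12.5% and 17.1% in the sham rats. The larger share of RT1-D in the sum of the BPVB rats came from RT1-Da, since the β chain RT1-Bb was above RT1-Db1 in each of these 3 libraries.
Within RT1-B, the FPKM of the α chain relative to that of the β chain was 1.54 ± 0.15 after banding and 0.699 ± 0.23 after sham surgery (SD, n = 3 each), so that the more abundant chain was not the same in both groups. Within RT1-D, the α chain exceeded RT1-Db1 in every library, by 3.12, 4.08 and 2.88 times in the BPVB rats, and by 8.15, 4.48 and 4.74 times in those with sham surgery. The 4.08 of BPVB replicate 2 and the 4.48 of sham replicate 2 lay close together, and without sham replicate 1 the difference of the group means of RT1-Da over RT1-Db1 was -1.25, against -2.43 with all 6 libraries. RT1-Db2, the other RT1-D β gene of the RefSeq annotation, was not analysed here.

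**Figure D2:**
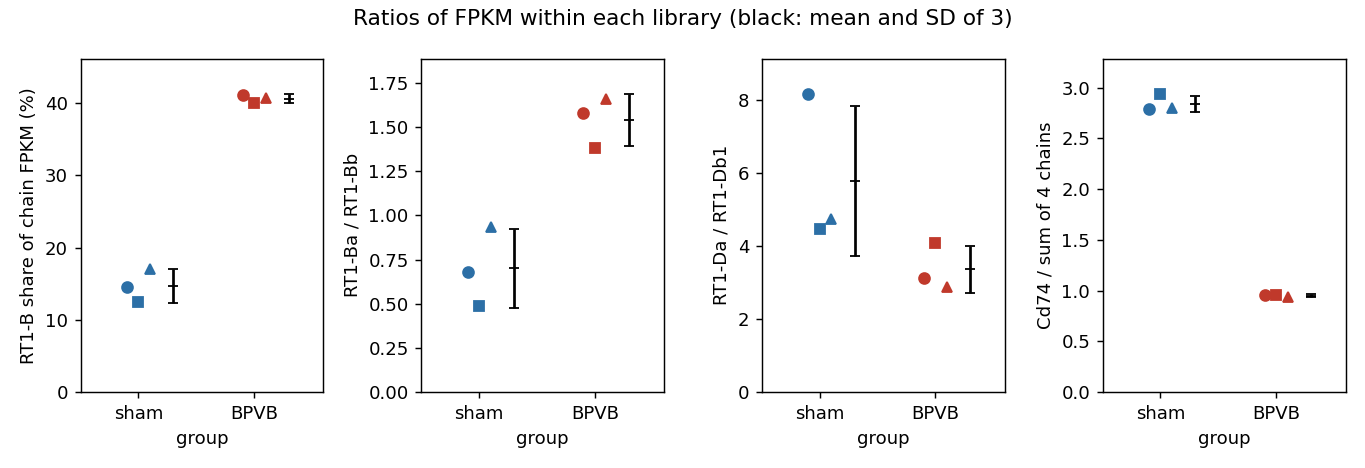
Ratios of FPKM within each library, with sham in blue, BPVB in red, symbols for the replicate number and the mean and SD of 3 in black: from left to right the share of RT1-B chains in the 4 classical chains (in %), RT1-Ba over RT1-Bb, RT1-Da over RT1-Db1, and Cd74 over the sum of the 4 chains. The groups are apart in all 4 panels, least so for RT1-Da over RT1-Db1, where the lowest sham library is at 4.48 and the highest BPVB library at 4.08.

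The DM genes, whose product loads peptides and never reaches the surface in quantity, differed far less. RT1-DMa (NCBI Gene 294274) had 6.92, 9.38 and 8.44 FPKM in the BPVB rats, against 3.94, 4.78 and 5.86 in the sham rats. The groups were apart, by 1.06 FPKM between the lowest BPVB and the highest sham library. RT1-DMb (NCBI Gene 294273) had 17.6, 14.2 and 14.9 FPKM in the BPVB rats, against 12.8, 9.54 and 15.9 in the sham rats. Sham replicate 3 was above BPVB replicates 2 and 3, and the log2 difference of 0.30 was 0.12 without sham replicate 2 and 0.47 without sham replicate 3. The DM β chain was the more abundant in all 6 libraries, and the ratio of α to β was 0.540 ± 0.14 in the BPVB group and 0.393 ± 0.099 in the sham group (SD, n = 3 each), with overlap.

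Cd74 (NCBI Gene 25599) was the most abundant gene of the set in both groups. It had 167, 176 and 169 FPKM in the BPVB rats, against 123, 134 and 127 in the sham rats. All BPVB libraries were higher, but the means differed by 1.33 times only, with a log2 difference of 0.41 (standard error 0.038). Per FPKM of the 4 classical chains, Cd74 stood at 2.84 ± 0.082 in the sham group and 0.952 ± 0.013 in the BPVB group (SD, n = 3 each). In FPKM, Cd74 was therefore well above the sum of these 4 chains in the sham libraries and slightly below it in the BPVB libraries. This compares RNA only: protein was not measured, and RT1-Db2 is not in the sum.
Ctss (NCBI Gene 50654), the protease that makes the last cut in the invariant chain of dendritic cells and B cells, had 29.6, 32.7 and 34.4 FPKM in the BPVB rats, against 15.5, 20.2 and 17.2 in the sham rats. The groups were apart, and the log2 difference was 0.86 (standard error 0.094), the middle value of the set.

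The order of the levels differed around the RT1-B chains. In the BPVB group it ran Cd74, RT1-Da, RT1-Ba, Ctss, RT1-Bb, RT1-Db1, RT1-DMb, RT1-DMa and Ciita, and only the ranges of Ctss and RT1-Bb overlapped among neighbours. In the sham group it ran Cd74, RT1-Da, Ctss, RT1-DMb, RT1-Db1, RT1-DMa, RT1-Bb, RT1-Ba and Ciita. There the ranges of Ctss and RT1-DMb overlapped, as did those of RT1-Db1 and RT1-DMa and of RT1-DMa and RT1-Bb. RT1-Ba was thus at rank 8 in the sham group and at rank 3 in the BPVB group. Within a group no library was the highest throughout: BPVB replicates 1, 2 and 3 were the highest for 2, 4 and 3 genes, and sham replicates 1, 2 and 3 for 1, 3 and 5 genes.

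Ciita (NCBI Gene 85483), the master regulator of the family, was the scarcest gene of the set. It had 0.861, 0.781 and 0.773 FPKM in the BPVB rats, against 0.293, 0.394 and 0.416 in the sham rats, from 132, 117 and 132 fragments and 40, 53 and 57 fragments. The groups were apart and the means differed by 2.19 times. The log2 difference of 0.59 (standard error 0.13) is lowered by the pseudocount, and on the recovered fragments with limma-voom it was 1.13.
Genes outside the set were tested with limma in a fit and an adjustment over all 15150 genes, the 9 included, of which 17.2% were higher and 14.3% lower after banding (adjusted p under 0.05). Of the 12 factors of the class II enhanceosome and its coactivators, 1 passed the test, with a median log2 difference of 0.01. This was Atf1, a CREB family factor, with 23.0 ± 0.96 FPKM against 19.0 ± 0.88 (SD, n = 3 each; log2 difference 0.27, adjusted p = 0.0053, limma). The RFX subunits did not pass: Rfx5 had a log2 difference of 0.10 (standard error 0.085, adjusted p = 0.40, and between 0.06 and 0.17 when 1 library was left out), Rfxap of -0.04 (standard error 0.093, adjusted p = 0.80) and Rfxank of -0.22 (standard error 0.13, adjusted p = 0.23). Without BPVB replicate 1 Rfxank was lower, by -0.38 with an adjusted p of 0.013.
Of 19 genes of the interferon gamma pathway and of Ciita induction, 5 were higher (26.3%) and 3 lower (15.8%), and the median log2 difference was 0.09. Ifng itself was not analysed here. Among the higher genes were Spi1, which encodes the myeloid factor PU.1 (log2 difference 0.76, adjusted p = 0.0021, limma), the receptor kinase gene Jak2 (0.66, adjusted p = 5.1e-05) and the feedback inhibitor Socs1 (0.52, adjusted p = 0.0069), whose adjusted p was 0.063 with limma-voom. The chemokine gene Cxcl9, a classical target of interferon gamma, fell from 8.10 ± 0.36 to 3.38 ± 0.89 FPKM (SD, n = 3 each; log2 difference -1.17, adjusted p = 3.5e-04, limma), and the receptor chain gene Ifngr1 was also lower (-0.33, adjusted p = 0.0015). The gene of the other receptor chain, Ifngr2, was higher (0.41, adjusted p = 0.0089, limma), as was the receptor kinase gene Jak1 (0.19, adjusted p = 0.0043). Irf1, which drives the interferon-responsive promoter of Ciita, had a log2 difference of -0.20 with an adjusted p of 0.025, which was between 0.072 and 0.084 without BPVB replicate 1, BPVB replicate 2, sham replicate 1 or sham replicate 3 and 0.060 with limma-voom. Nlrc5, the class I relative of Ciita, had a log2 difference of 0.19 (standard error 0.14, adjusted p = 0.37), which ranged from 0.11 to 0.53 over the alternatives run.

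Beyond the set, 19 further genes of class II loading and presentation were measured. A total of 8 were higher with an adjusted p under 0.05 (42.1%, beside 17.2% of all tested genes, limma), and the median log2 difference was 0.36. The largest was that of RT1-DOb, a chain of the DM inhibitor DO, at 0.99 (adjusted p = 0.0055). It had 0.861 ± 0.38 FPKM in the BPVB group and 0.170 ± 0.056 in the sham group (SD, n = 3 each), from at most 39 fragments in a library. Its partner RT1-DOa had 0.689 ± 0.37 and 0.503 ± 0.23 FPKM (SD, n = 3 each) and did not pass (adjusted p = 0.57). The endosomal proteases Lgmn (log2 difference 0.42, adjusted p = 9.8e-05) and Ctsl (0.36, adjusted p = 4.1e-06) were higher, and the thiol reductase gene Ifi30 did not pass (-0.07, adjusted p = 0.29, and between -0.11 and -0.03 when 1 library was left out). Of the ligands of CD28, Cd80 passed (0.56, adjusted p = 0.030) and lost its call without BPVB replicate 2, BPVB replicate 3, sham replicate 1 or sham replicate 2, with an adjusted p of 0.058, 0.094, 0.091 and 0.094, and with quantile normalization (0.051). Its log2 difference was between 0.48 and 0.69 when 1 library was left out, and ranged from 0.34 with a pseudocount of 1 to 1.73 with limma-voom. Cd86 did not pass (0.65, adjusted p = 0.14), but it passed without BPVB replicate 3, the lowest BPVB library for Cd86 (1.03, adjusted p = 0.00614).

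The classical chains lie close together on chromosome 20, with RT1-Db2 and a pseudogene between RT1-Da and RT1-Db1, and with genes of class I processing between them and DM. In RefSeq order, the log2 differences were 1.32 for RT1-Da, 1.98 for RT1-Db1, 3.82 for RT1-Ba and 2.73 for RT1-Bb, then 0.99 for RT1-DOb. The class I genes that follow were closer to 0. The transporter gene Tap2 did not pass (0.21, adjusted p = 0.14, limma), the immunoproteasome gene Psmb8 was higher (0.63, adjusted p = 5.4e-04), Tap1 was higher (0.45, adjusted p = 0.0036) and Psmb9 did not pass (0.08, adjusted p = 0.46). RT1-DMb (0.30) and RT1-DMa (0.71) came next, then LOC120098895 (-0.24, adjusted p = 0.25), Brd2 (0.09, adjusted p = 0.24) and RT1-DOa (0.22), none of the last 3 past the test. When 1 library was left out, RT1-DOa ranged from 0.03 (without sham replicate 1) to 0.49 (without BPVB replicate 1), Tap2 was as low as 0.10 (without sham replicate 1), and Psmb9 lay between 0.04 and 0.16. The largest difference of the region was that of RT1-Ba. The place of RT1-DOb in this series depends on the pseudocount, since its log2 difference ranged from 0.65 to 2.16 over the alternatives run, the highest with limma-voom. Cd74, Ciita and Ctss lie on other chromosomes, 18, 10 and 2.

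**Figure D3:**
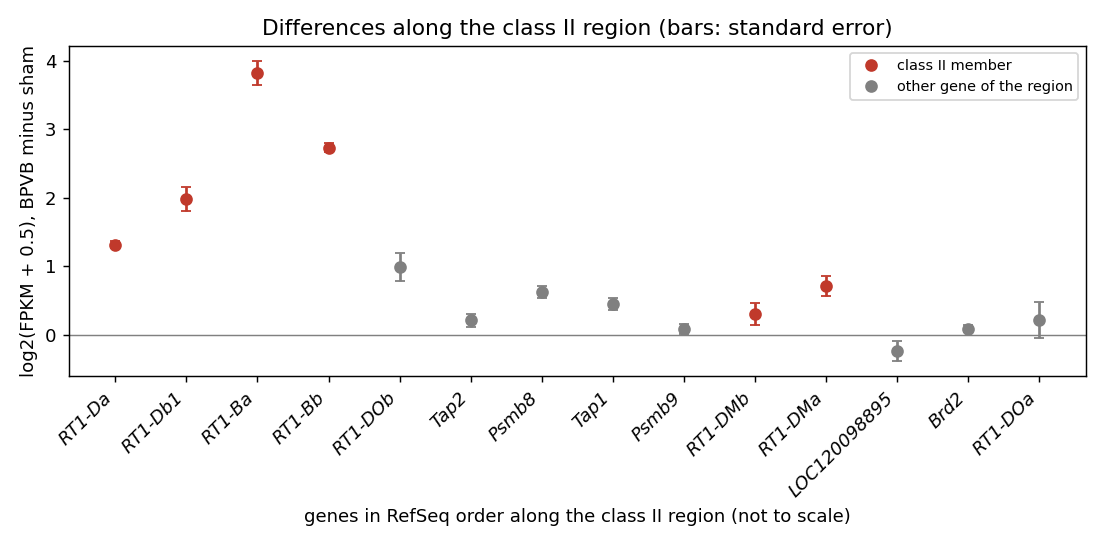
Log2 difference of BPVB minus sham on log2(FPKM + 0.5), with its standard error, for the tested genes of the class II region in RefSeq order (not to scale), with genes of the set in red and other genes in grey. The points rise from RT1-Da (1.32) to RT1-Ba (3.82). The point of RT1-DOb (0.99) depends on the pseudocount and was between 0.65 and 2.16 over the alternatives run.

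Cells that carry class II were followed by their markers. The counts below stand beside 17.2% higher and 14.3% lower over all tested genes. Of 10 pan-leukocyte genes, 7 were higher with an adjusted p under 0.05 (limma), and their summed level was 255 to 279 FPKM in the BPVB libraries and 211 to 217 in the sham libraries. Cd48 alone, which did not pass, gave 137 ± 5.3 and 142 ± 2.2 FPKM of these sums (SD, n = 3 each; log2 difference -0.05, adjusted p = 0.31). Ptprc, which encodes CD45, rose from 2.49 ± 0.28 to 5.75 ± 0.33 FPKM (SD, n = 3 each; log2 difference 1.06, adjusted p = 8.4e-05).
Of 16 macrophage and monocyte genes, 12 were higher and 1 was lower, with sums of 767 to 789 FPKM against 308 to 315. The median log2 difference of these genes was 0.63, well under that of Lyz2. Lyz2, the lysozyme gene, made up most of these sums, with 592 ± 16 FPKM in the BPVB rats and 163 ± 3.8 in the sham rats (SD, n = 3 each; log2 difference 1.85, adjusted p = 1.4e-09). Cd68 had a log2 difference of 1.09 (adjusted p = 2.3e-04) and the monocyte receptor gene Ccr2 of 1.11 (adjusted p = 9.6e-05), while Lyve1, which resident perivascular macrophages share with lymphatic endothelium, was lower (-0.47, adjusted p = 1.6e-04).
Of 13 tested dendritic cell genes, 8 were higher, 1 was lower and 4 did not pass. The sums were 96.2 to 104 FPKM against 83.1 to 87.0 over all listed genes of the table, the untested Xcr1 included. The lower gene was Fscn1, the most abundant of the list in both groups. It had 34.0 ± 1.5 FPKM in the BPVB group and 41.2 ± 2.1 in the sham group (SD, n = 3 each; log2 difference -0.27, adjusted p = 0.0039, limma). The largest differences were those of the chemokine genes Ccl17 (2.97, adjusted p = 2.6e-04) and Ccl22 (1.53, adjusted p = 0.0069). Ccl17 rested on 34, 13 and 53 fragments, against 0, 0 and 1 in the sham rats, and Ccl22 on 99, 39 and 22, against 0, 1 and 1, so that both fitted differences depend on the pseudocount. The receptor gene Flt3 rose from 0.254 ± 0.072 to 0.697 ± 0.078 FPKM (SD, n = 3 each; 0.67, adjusted p = 0.0068), with a log2 difference between 0.44 and 1.48 over the alternatives run.
B cell genes were scarce. Of 11 tested, 0 passed in either direction with limma, where 3 were higher and 0 lower at an unadjusted p under 0.05, and limma-voom called 1 higher and 1 lower. With the untested Cr2 included, the B cell sums were 9.20 to 10.8 FPKM against 9.40 to 10.3. Of 14 T cell genes, 2 were higher (14.3%), which is under the share of all tested genes. They were Icos (1.03, adjusted p = 0.0019, limma) and Cd4 (0.72, adjusted p = 4.5e-04), the latter a gene that rat macrophages also express. Icos rested on 0, 4 and 7 fragments in the sham rats, and its log2 difference ranged from 0.63 to 3.88 over the alternatives run. Cd3e had 0.522 ± 0.17 and 0.583 ± 0.18 FPKM (SD, n = 3 each; adjusted p = 0.77).
The 10 alveolar type 2 cell genes were all higher, with sums of 565 to 610 FPKM against 67.8 to 70.7 and a median log2 difference of 2.68. Sftpc, the surfactant protein C gene, rose from 36.6 ± 1.4 to 390 ± 22 FPKM (SD, n = 3 each; 3.40, adjusted p = 8.6e-10). Of 10 endothelial genes 6 were lower, with Emcn at -0.52 (adjusted p = 3.6e-05), of 8 smooth muscle genes 2 were higher and 4 lower, and of 8 genes of the atrial sleeve 2 were higher and 6 lower. The part of these cell types in the class II values was not tested.

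**Figure D4:**
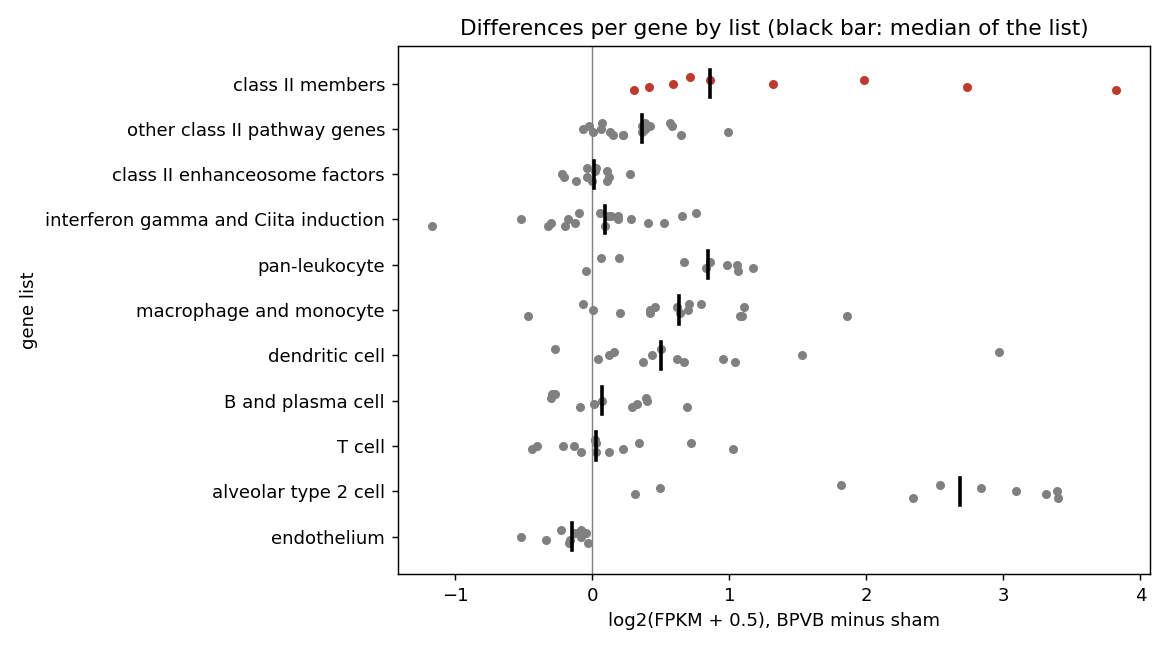
Log2 difference of BPVB minus sham on log2(FPKM + 0.5) for each gene of 11 lists, with the class II set in red, other genes in grey and the median of each list as a black bar. The medians are 0.86 for the class II set, 0.84 for pan-leukocyte genes, 0.01 for the enhanceosome factors and 2.68 for alveolar type 2 cell genes.

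Set against the leukocyte gene Ptprc in the same library, the class II genes did not all stand alike. The sum of the 4 chains was 31.3 ± 2.5 FPKM per FPKM of Ptprc after banding and 18.3 ± 2.1 after sham surgery (SD, n = 3 each), with the groups apart. RT1-Da had 12.7, 15.8 and 14.4 FPKM per FPKM of Ptprc in the BPVB rats, against 13.5, 11.8 and 14.1 in the sham rats, so that the groups overlapped. Ciita did as well, with 0.141, 0.140 and 0.140 against 0.118, 0.142 and 0.188. Cd74 per Ptprc was lower in all BPVB libraries, at 29.8 ± 2.2 against 51.8 ± 5.0 (SD, n = 3 each). RT1-Ba per Ptprc was 7.69 ± 0.59 in the BPVB group and 1.14 ± 0.52 in the sham group (SD, n = 3 each), and no BPVB library came near a sham library. Ctss per Ptprc overlapped between the groups, at 5.63 ± 0.72 and 7.09 ± 0.79 (SD, n = 3 each). The sum of the 4 chains was 18.6 ± 1.7 FPKM per FPKM of the macrophage gene Cd68 in the BPVB group and 10.7 ± 1.9 in the sham group, and 0.461 ± 0.013 and 1.24 ± 0.028 per FPKM of Sftpc (SD, n = 3 each). The sum was thus higher in the BPVB group per FPKM of Ptprc and of Cd68, though RT1-Da alone overlapped against Ptprc, and it was lower per FPKM of Sftpc. These directions hold for the single genes named and not for a cell type. Lyz2, also of the macrophage list, had means of 592 FPKM in the BPVB group and 163 in the sham group, beside 179 and 45.2 for the sum. The ratio to Lyz2 was not computed.

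**Figure D5:**
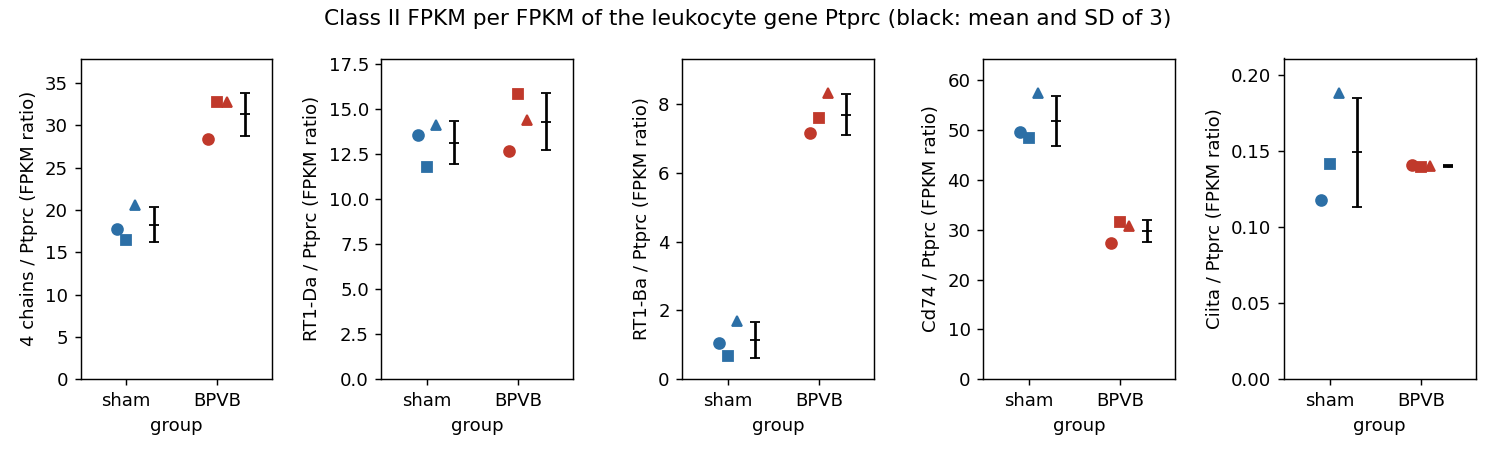
FPKM of class II genes divided by the FPKM of the leukocyte gene Ptprc in the same library, with sham in blue, BPVB in red, symbols for the replicate number and the mean and SD of 3 in black; the panels show the sum of the 4 chains, RT1-Da, RT1-Ba, Cd74 and Ciita. RT1-Ba is apart between the groups (7.69 against 1.14 on average), whereas RT1-Da and Ciita overlap.

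Class II and class I genes of the rat MHC are highly polymorphic, and Sprague-Dawley rats are outbred. Of 24 tested RT1 genes outside class II, 8 passed the test as higher (33.3%) and 9 as lower (37.5%), beside 17.2% and 14.3% of all tested genes (limma). Their log2 differences ran from -1.62 for RT1-CE3 (adjusted p = 1.9e-04) to 7.60 for RT1-CE16 (adjusted p = 4.0e-08), which had 157 ± 1.9 FPKM in the BPVB group and 0.345 ± 0.29 in the sham group (SD, n = 3 each). RT1-A3 followed on the higher side (2.26, adjusted p = 1.6e-06) and RT1-M6-1 on the lower side (-1.44, adjusted p = 0.0022). The order of RT1-CE3 and RT1-M6-1 depends on the pseudocount, and with limma-voom their differences were -2.80 and -3.10. Many of these genes have near-identical copies, between which the counting could have split reads. Of 13 class I processing genes 4 were higher (30.8%) and 2 lower (15.4%), and B2m, the light chain of class I, rose from 491 ± 6.4 to 644 ± 15 FPKM (SD, n = 3 each; 0.39, adjusted p = 5.7e-06, limma). How far RT1 alleles of the rats, and the match of their reads to the reference, entered the FPKM of the class II chains was not tested.

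Among all other genes that averaged 1 FPKM or more, the pattern most like the median pattern of the 9 genes over the 6 libraries, by Euclidean distance of centred log2(FPKM + 0.5), was that of Laptm5, a lysosomal membrane protein gene of leukocytes (distance 0.16). Diaph3 (0.17), Fmo1 (0.18), Flnc (0.18) and Ppp1r3c (0.19) followed. Their log2 differences lay between 0.87 for Ppp1r3c and 1.08 for Diaph3 and Flnc.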

How the data were processed

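The authors trimmed the reads (150 bp, paired-end) with fastp, mapped them with HISAT and deposited FPKM per gene, 1 column per rat, replicates not pooled. The paper names HTSeq-count, whereas the submitters' processing notes list HISAT2 2.0.5, StringTie 1.3.3b, featureCounts 1.5.0-p3 and DESeq2 1.20.0. Build, annotation and strand setting are not given in the sources used here. Groups and replicate numbers came from the sample titles, and every column of values was used (0 were set aside).

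The 9 genes and all lists were chosen with earlier results of these data known. The fragments behind each FPKM were worked out from whole-number ratios between libraries, for 100.0% of genes. Genes averaging 0.1 FPKM or more were compared with limma 3.58.1 (R 4.3.3, eBayes with trend) on log2(FPKM + 0.5), two-sided, with Benjamini-Hochberg adjustment over all tested genes. Called genes had an adjusted p under 0.05. A stricter rule that adds an absolute log2 difference above 1 was an alternative. The procedure was tested on simulated data. Libraries of a group differed by more than sampling noise, and p-values measure only the spread between rats within a group. They do not cover a difference of litter, dissection or library handling between the groups. Named genes were the 9, from each list up to 2 called genes with the largest rise and 2 with the largest fall, factors and markers fixed by role, and the 5 genes most like the 9 in pattern. Some genes under this rule are not reported here. LOC120098895, Brd2, Ifngr2, Jak1, Cd48, RT1-DOa, Tap2, Psmb9, Lgmn, Ctsl, Socs1, Ifi30 and Cd86 and the sums and ratios within a library were chosen after their values were seen. Other steps ran in Python 3.11.15 (numpy 2.4.6, pandas 2.3.3, matplotlib 3.10.9). Alternatives were other pseudocounts, filters and scalings, voom on the recovered fragments, a replicate block and leaving out each library.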

Additional observations from a re-analysis of the deposited data

How the results depend on the processing

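With 3 rats a group, depth limits the scarce genes most: Ciita rested on 40 fragments in a sham library, and 9 of the 12 B cell genes averaged under 1 FPKM. The median log2 difference of the 9 genes, 0.86, was 0.96 with a pseudocount of 0.1, 1.13 with limma-voom and 1.09 among genes averaging 1 FPKM or more, where Ciita is not tested. It was between 0.77 and 0.96 when 1 library was left out. No difference of the 9 genes changed sign under any alternative run, and all 30 values of the 5 ratios recomputed without 1 library kept their direction. For the 5 ratios and for 8 of the 9 genes the groups are apart, so leaving out 1 library could not have turned the direction. For these, the kept direction is therefore no test.

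With an absolute log2 difference above 1 required beside the adjusted p, 340 genes were higher and 156 lower over the whole table. The counts then were 0 higher for the other class II genes and the enhanceosome, 0 higher and 1 lower for the interferon list, 0 and 0 for class I processing, 3 higher for pan-leukocyte genes, 3 higher and 0 lower for dendritic cells, 4 higher and 0 lower for macrophages, 1 higher for T cells, 0 lower for endothelium, and 0 and 0 for both smooth muscle and the sleeve. The number of lower enhanceosome genes was 2 with median-of-ratios scaling, 1 with quantile normalization, 1 with limma-voom, and 0 to 1 when 1 library was left out. Among genes averaging 1 FPKM or more, 4 dendritic cell genes and 1 T cell gene were higher. Of B cell genes 2 were higher with no filter, 1 was higher and 1 lower with limma-voom, and 0 to 1 were higher when 1 library was left out. Of T cell genes 1 was lower with no filter, 1 with quantile normalization, and 0 to 1 when 1 library was left out, and 2 smooth muscle genes were lower with quantile normalization. The cause of these shifts was not tested, apart from the added threshold and the filter at 1 FPKM, which by construction remove genes. Of 801 values of 58 named genes outside the set, 781 kept their direction and their side of the threshold, 12 lost and 2 gained the call, and 6 changed sign, none of them called in any of these fits. With 1 library left out, the log2 difference of Rfxap (-0.04) was between -0.099 and 0.075, that of the B cell gene Cd79a (0.07) between -0.063 and 0.199, and that of Cd3e (-0.08) between -0.198 and 0.050. Cd79a was at -0.056 with quantile normalization. The signs changed without BPVB replicate 2 for Rfxap, without BPVB replicate 1 or sham replicate 3 for Cd79a, and without BPVB replicate 1 or sham replicate 1 for Cd3e.

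Rats of the same replicate number deviated from their group means with correlations of 0.0255, 0.0136 and 0.0153, too low to take them as pairs, although every library correlated best with its own number. With the replicate number as a block, 2466 genes were higher and 2073 lower, beside 2605 and 2170 without it.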
